A study of Mus musculus with 12 samples.

Results

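The 10 genes Gzma, Gzmb, Prf1, Nkg7, Il2rb, Ncr1, Klrb1c, Klrd1, Klrk1 and Eomes are textbook genes of natural killer (NK) cells and of cytotoxic T lymphocytes. They were chosen by symbol, with earlier results of these data known, and all 10 were found among the 54532 genes of the count table. RNA was measured in whole tibialis anterior, a fast muscle at the front of the lower hind leg of the mouse, 5 days after an injection of glycerol. Glycerol injures the muscle, and fat forms within it during repair. The 6 knockout libraries carry a conditional deletion of Pparg, the nuclear receptor that drives fat cell formation, in fibro-adipogenic progenitors (FAPs), the mesenchymal cells of muscle that can become fat cells. The 6 control libraries are labelled wild type. All 12 libraries share the glycerol injury and a strain tag spelled 129svlmJ, and neither mouse age nor the Cre driver is stated in the sources used here. No label ties a library to a mouse, so the p-values rest on the spread between these samples alone, part of which may be technical.

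NK cells are lymphocytes that kill infected, stressed or transformed cells without an antigen receptor made by gene rearrangement. They store perforin and granzymes in granules and release them onto a target when signals from activating receptors outweigh those from inhibitory receptors. Interleukin 15, presented by myeloid and stromal cells, keeps them alive, and activated CD8 T cells use many of the same effector genes. In injured muscle such lymphocytes are a small population beside the macrophages that dominate the infiltrate.

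The libraries held between 15716056 and 29790720 counts. Pparg, the deleted gene, stood at 26.4 ± 10.3 CPM (counts scaled to a common library total) in knockouts and 57.4 ± 8.27 CPM in controls (SD, n = 6 each), with no library of either group inside the range of the other, and the closest was knockout replicate 2 at 43.1 CPM. The adjusted p of Pparg was 0.0299, and it ranged from 0.00769 to 0.0856 with 1 library left out (edgeR quasi-likelihood). The skeletal muscle list of 10 genes, which includes actin Acta1 and creatine kinase Ckm, summed to between 17220 and 49177 CPM in knockouts and between 19450 and 39824 CPM in controls. At 14 loci that were either clearly high or clearly low in each library, 4 pairs of libraries of the same group agreed in 85.7% to 100% of states. These pairs were knockout replicates 1 and 2, knockout replicates 3 and 4, knockout replicates 5 and 6, and control replicates 4 and 5. The next highest agreement was 78.6%, that of control replicate 3 with control replicates 1, 2, 4 and 5. Libraries of different groups agreed in at most 71.4% of states. No label says whether any of the 4 agreeing pairs shares an animal or a litter. Results with the counts of each agreeing pair summed are given where they bear on a call.

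Every one of the 10 genes had a positive log2 fold change, knockout minus control, yet none passed the test over all genes. A positive sign was found for 49.5% of all 16393 tested genes. The median of the 10 was 0.91 on the log2 scale, against -0.0013 over all tested genes, and 7 of the 10 had a log2 fold change over 0.5, against 2.95% of all tested genes. These shares describe a set chosen with earlier results of these data known. Its genes also varied together between libraries, so they are not 10 separate observations. Counts of the 10 genes summed to 36.3 ± 9.93 CPM in knockouts and 20.03 ± 9.11 CPM in controls (SD, n = 6 each). By edgeR's quasi-likelihood test with Benjamini-Hochberg adjustment over the 16393 genes, 0 of 10 passed an adjusted p of 0.05. Over all tested genes 131, or 0.799%, passed, and 8 of them, or 0.0488%, were higher in the knockout. At an unadjusted p under 0.05 the 10 genes gave 4 (Gzma, Il2rb, Ncr1 and Klrb1c), all higher in knockouts, against 3.79% of all tested genes that were higher at this level and 9.47% in either direction. Low-count genes have wide errors, so the same shares were taken over the 3508 tested genes within the range of mean level of the 10 genes. There 4.33% were higher at an unadjusted p under 0.05, 7.33% had a log2 fold change over 0.5, and the median log2 fold change was 0.01. DESeq2 called 2 of the 10 genes, Gzma and Il2rb, and over all 16393 genes it called 399, 67 of them higher in knockouts. With limma-voom and quality weights 0 of the 10 were called, and 389 over all genes, 64 of them higher in knockouts. In whole muscle, more cells of a type and more RNA per cell cannot be told apart.

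**Figure D1:**
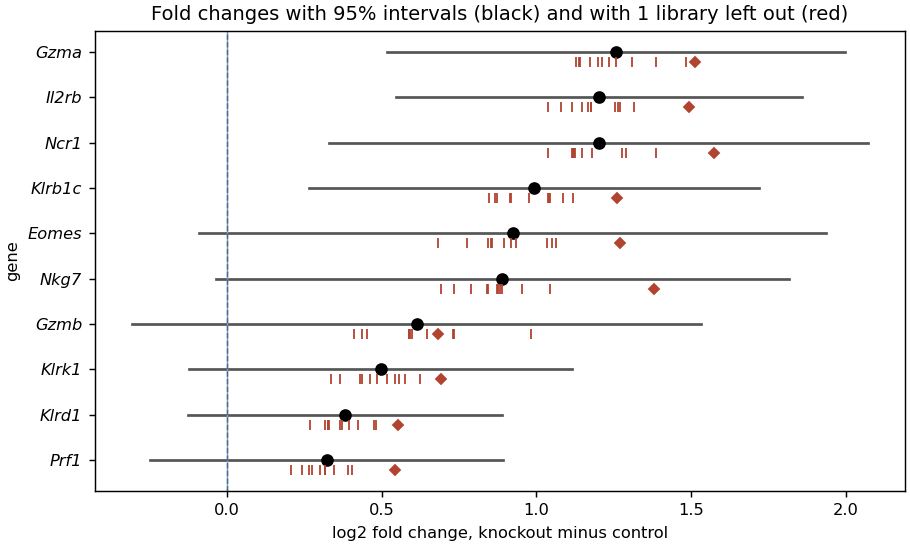
Log2 fold change, knockout minus control, of each of the 10 genes (black points) with its 95% interval from the quasi-likelihood fit (black lines). Red ticks give the value with 1 library left out, the red diamond the value without control replicate 1, and the dashed line the median of all tested genes; all points lie above 0, and the intervals of Gzma, Il2rb, Ncr1 and Klrb1c do not reach 0.

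Before the values of each gene, the promoters are shown as a description of the upstream sequence. The RefSeq promoter table (GRCm38.p6, 250 bases before to 50 after a start) held 9 promoters of 8 of the 10 genes, Ncr1 with a pair of overlapping entries that hold the same matches and are counted once here; Il2rb and Klrd1 were not in it. The core TGTGGT, the letters recognised by Runx factors, which act in cytotoxic lymphocytes, was searched on both strands. The search was chosen after the fold changes were seen. Because the 10 genes were picked as genes of cytotoxic lymphocytes, a Runx match is not separate from that choice. Promoters of other lymphocyte genes were not compared, and a link between the motif and the fold changes was not tested. TGTGGT lay in the promoters of 7 of the 8 genes, Gzma, Gzmb, Ncr1, Klrb1c, Klrk1, Nkg7 and Prf1, and not in that of Eomes, whereas 16.8% of all 32851 promoters of the table held it. Another 3 motifs were searched in the same way: GGTGTGA of the T-box factors, to which Eomes belongs, lay in 1 of the 8 (Nkg7) and in 3.98% of all promoters, GGAAGT of ETS factors in 2 of the 8 (Klrb1c and Prf1) and in 23.8% of all, and TTCNNNGAA of STAT5 in 2 of the 8 (Gzmb and Nkg7) and in 8.30% of all. No match of a motif overlapped a match of another. A match is a string of letters and not a measured binding site. The 250 bases before the start are printed for Gzma and Gzmb, the granzymes, for Ncr1 and Klrk1, activating receptors, and for Prf1, perforin, 5′ to 3′ on the gene's strand, with each TGTGGT or its reverse complement ACCACA in capitals.
Gzma, chr13:113100982-113101231, minus strand: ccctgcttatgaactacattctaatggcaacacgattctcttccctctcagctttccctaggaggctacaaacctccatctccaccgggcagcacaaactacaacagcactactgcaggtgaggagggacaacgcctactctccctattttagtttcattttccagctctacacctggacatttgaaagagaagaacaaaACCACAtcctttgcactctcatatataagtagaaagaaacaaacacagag
Gzmb, chr14:56262335-56262584, minus strand: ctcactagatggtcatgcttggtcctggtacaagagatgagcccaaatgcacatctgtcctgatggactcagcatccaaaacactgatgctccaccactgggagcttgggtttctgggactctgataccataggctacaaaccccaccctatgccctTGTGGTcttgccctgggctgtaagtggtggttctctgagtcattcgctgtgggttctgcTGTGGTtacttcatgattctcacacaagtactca
Ncr1, chr7:4337465-4337714, plus strand: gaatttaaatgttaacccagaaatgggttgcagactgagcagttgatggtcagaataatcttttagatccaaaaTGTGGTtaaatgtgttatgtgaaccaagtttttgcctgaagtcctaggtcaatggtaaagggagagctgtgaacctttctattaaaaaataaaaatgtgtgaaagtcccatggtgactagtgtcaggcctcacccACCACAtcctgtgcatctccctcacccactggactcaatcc
Klrk1, chr6:129623865-129624114, minus strand: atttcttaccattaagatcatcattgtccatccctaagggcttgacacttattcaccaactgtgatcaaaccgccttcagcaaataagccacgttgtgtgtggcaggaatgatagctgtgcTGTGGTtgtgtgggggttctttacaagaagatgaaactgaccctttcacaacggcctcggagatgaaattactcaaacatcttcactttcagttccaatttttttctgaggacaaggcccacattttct
Prf1, chr10:61297586-61297835, plus strand: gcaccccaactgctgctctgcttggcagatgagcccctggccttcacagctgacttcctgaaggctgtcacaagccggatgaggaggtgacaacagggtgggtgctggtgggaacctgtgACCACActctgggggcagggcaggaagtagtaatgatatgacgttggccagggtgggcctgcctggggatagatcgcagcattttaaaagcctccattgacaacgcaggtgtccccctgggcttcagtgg
Counted back from the start, the first base of the match lay at -50 in Gzma, at -93 and -34 in Gzmb, at -176 and -41 from the Ncr1 start shown, at -129 in Klrk1 and at -130 in Prf1.

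The granule proteins were led by Gzma, granzyme A, a serine protease that enters the target cell (chromosome 13, 113093825 to 113100981, minus strand, GRCm38). Gzma ranged from 4.00 to 9.54 CPM in knockouts, with a median of 7.93, and from 1.62 to 5.67 CPM in controls, with a median of 2.24. The groups overlapped through knockout replicate 1, at 4.00 CPM, which lay below control replicates 1 and 4, while the other 5 knockouts lay above every control. The log2 fold change was 1.26 (SE 0.34, 95% interval 0.52 to 2.00), a 2.39-fold higher mean level, with an unadjusted p of 0.00277 and an adjusted p of 0.132 (edgeR quasi-likelihood). Gzmb, granzyme B, which cleaves caspases and other substrates in the target (chromosome 14, 56258838 to 56262260, minus strand), had from 1.23 to 3.37 CPM in knockouts, with a median of 2.28, and from 0.305 to 2.90 CPM in controls, with a median of 1.40. Its groups overlapped over most of their range, and its highest control was replicate 3 rather than replicate 1. The log2 fold change of Gzmb was 0.61 with a 95% interval from -0.31 to 1.53 and an adjusted p of 0.781 (edgeR quasi-likelihood).

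Prf1, perforin, forms the pores through which granzymes pass (chromosome 10, 61297833 to 61304680, plus strand). It was found with between 12 and 29 counts per library, from 0.760 to 1.23 CPM in knockouts and from 0.496 to 1.42 CPM in controls. No knockout lay above the highest control, and Prf1 had the smallest log2 fold change of the 10 genes, 0.32 (95% interval -0.25 to 0.89, adjusted p = 0.835, edgeR quasi-likelihood). Nkg7, a membrane protein of cytotoxic granules that takes part in their release (chromosome 7, 43437073 to 43438249, plus strand), ranged from 1.25 to 4.46 CPM in knockouts, with a median of 2.90, and from 0.349 to 3.71 CPM in controls, with a median of 1.30. Here control replicate 1 at 3.71 CPM lay above 5 of 6 knockouts, and the other controls, at 1.45 CPM or less, lay below 5 of 6 knockouts. The log2 fold change of Nkg7 was 0.89 (SE 0.43, 95% interval -0.04 to 1.82, adjusted p = 0.552, edgeR quasi-likelihood).

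Il2rb is the beta chain shared by the receptors for interleukins 2 and 15, and through it NK cells receive their survival signal (chromosome 15, 78479256 to 78495271, minus strand). It had from 4.09 to 10.6 CPM in knockouts, with a median of 6.73, and from 1.57 to 5.72 CPM in controls, with a median of 2.56. Without control replicate 1, the highest control stood at 3.52 CPM, below all 6 knockouts. Il2rb had the smallest p of the 10 genes, with a log2 fold change of 1.20 (SE 0.31, 95% interval 0.55 to 1.86), an unadjusted p of 0.00154 and an adjusted p of 0.0979 (edgeR quasi-likelihood). Without control replicate 1 its log2 fold change was 1.49 and its adjusted p 0.0451 (edgeR quasi-likelihood), the only call among the 12 fits that left out 1 library each.

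Ncr1, known as NKp46, is the activating receptor by which NK cells of the mouse are commonly defined (chromosome 7, 4337724 to 4345164, plus strand). Ncr1 counts were between 10 and 66 per library. Its level ranged from 0.903 to 3.64 CPM in knockouts, with a median of 3.19, and from 0.436 to 2.54 CPM in controls, with a median of 0.918. Knockout replicates 2, 4, 5 and 6 lay above every control, whereas knockout replicate 1 lay among the lower controls. The log2 fold change was 1.20 (SE 0.41, 95% interval 0.33 to 2.07, adjusted p = 0.266, edgeR quasi-likelihood).

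The lectin-like receptors Klrb1c, Klrd1 and Klrk1 are encoded in the NK gene complex on chromosome 6. Klrb1c is the NK1.1 antigen, an activating receptor used as an NK marker in some strains (128778485 to 128789215, minus strand). It ranged from 1.01 to 2.68 CPM in knockouts, with a median of 1.73, and from 0.406 to 1.66 CPM in controls, with a median of 0.833. Knockout replicates 2, 4 and 5 lay above every control, and the log2 fold change was 0.99 (SE 0.34, 95% interval 0.26 to 1.72, adjusted p = 0.274, edgeR quasi-likelihood). Klrd1, or CD94 (129591782 to 129598775, plus strand), pairs with NKG2 chains to read the non-classical class I molecule Qa-1. Klrk1, or NKG2D (129610323 to 129623864, minus strand), recognises stress-induced ligands on target cells. Klrd1 ranged from 2.88 to 6.33 CPM in knockouts and from 2.49 to 5.32 CPM in controls, and Klrk1 from 4.17 to 8.65 CPM in knockouts and from 1.67 to 6.69 CPM in controls. The groups overlapped for both, with knockout replicates 4 and 5 above every control for Klrd1 and knockout replicates 2 and 4 for Klrk1. These are the better counted receptors, with up to 116 and 147 counts in a library, and their log2 fold changes were 0.38 (95% interval -0.12 to 0.89) and 0.50 (95% interval -0.12 to 1.12). Neither passed, with adjusted p-values of 0.711 for Klrd1 and 0.671 for Klrk1 (edgeR quasi-likelihood).

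Eomes is the T-box transcription factor of mature NK cells and memory CD8 T cells (chromosome 9, 118478212 to 118486132, plus strand). It was the least abundant of the 10 genes per length, with between 13 and 41 counts in knockout libraries and between 1 and 25 in control libraries. Knockout replicates 2, 3, 4 and 5, from 1.23 to 1.47 CPM, lay just above the highest control at 1.22 CPM, and knockout replicates 1 and 6, at 0.688 and 0.570 CPM, lay within the control range. The log2 fold change was 0.92 with a wide 95% interval from -0.09 to 1.94 and an adjusted p of 0.593 (edgeR quasi-likelihood).

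**Figure D2:**
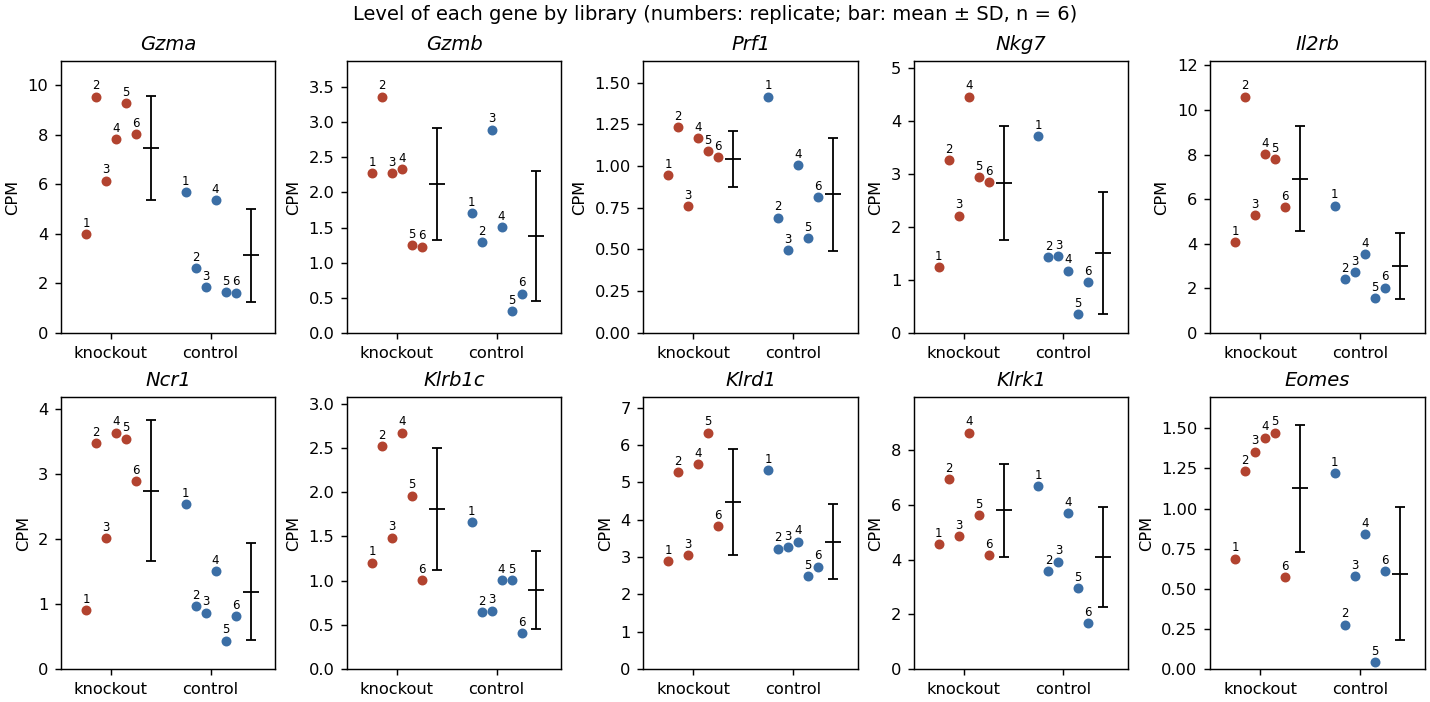
CPM of each of the 10 genes in every library, knockouts (red) left of controls (blue), with the replicate number above each point and the mean ± SD of the 6 libraries beside it. The groups overlapped for all 10 genes, and control replicate 1 was the highest control for every gene but Gzmb.

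No gene of the 10 had groups that did not overlap, and over all tested genes 0.159% had every knockout above every control and 1.43% had groups apart in either direction. Per length, by the FPKM values that the authors deposited, the order of the levels over the 12 libraries was Gzma (5.22 ± 2.91 FPKM), Klrd1 (3.05 ± 1.00), Nkg7 (2.35 ± 1.37), Ncr1 (1.27 ± 0.776), Gzmb (1.21 ± 0.630), Il2rb (1.14 ± 0.644), Klrk1 (0.682 ± 0.262), Klrb1c (0.453 ± 0.244), Prf1 (0.359 ± 0.106) and Eomes (0.205 ± 0.113; SD, n = 12). Several neighbours in this order changed places between libraries. Nkg7 was above Ncr1, and Klrk1 above Klrb1c, in 12 of 12 libraries, Il2rb was above Klrk1 and Prf1 above Eomes in 11 of 12, and Ncr1 was above Gzmb in 6 of 12 and Gzmb above Il2rb in 5 of 12. Gzma had the highest mean of the 10 genes in both groups, and it was above Klrd1 in 6 of 6 knockouts and in 3 of 6 controls. Means were 7.37 FPKM for Gzma and 3.47 FPKM for Klrd1 in knockouts, and 3.07 and 2.63 FPKM in controls.

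The 10 genes varied together between libraries of the same group. After the group mean was taken from each gene's log2 CPM, all 45 pairs of the 10 genes had a positive Pearson correlation over the 12 libraries, with a median r of 0.69 and a range from 0.14 to 0.92, which is given as a description since all pairs share the same libraries. Il2rb followed the mean of the other 9 genes most closely (r = 0.97) and Gzmb least (r = 0.51). Knockout replicates 2, 4 and 5 were among the 3 highest libraries for 8, 9 and 6 of the 10 genes. Control replicate 5 was the lowest library for 6 genes and control replicate 6 for 3. Spread exceeded counting error: Gzma had a coefficient of variation of 27.9% in knockouts and 60.1% in controls, where counting alone gives 8.09% and 12.5%. For Prf1 the coefficient of variation of 16.3% in knockouts was below the 21.7% that counting alone gives, so its variation between knockouts was not detectable at this depth.

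**Figure D3:**
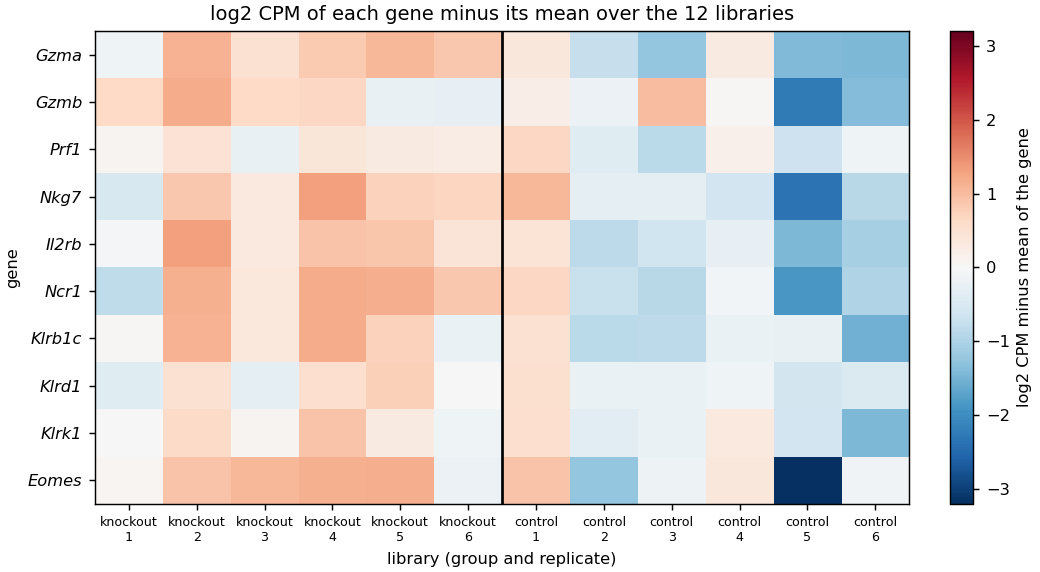
Log2 CPM of each gene (rows) in each library (columns, knockouts left of controls) minus the gene's mean over the 12 libraries, red above and blue below that mean. Because each gene is centred on its own mean, differences in level between genes are not shown. Knockout replicates 2 and 4 are above the mean for all 10 genes, and control replicate 5 is below it for all 10.

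The libraries that agreed at the discrete loci were not alike in these genes. The summed CPM of the 10 genes was 22.8 in knockout replicate 1 and 47.5 in knockout replicate 2, the lowest and the highest knockout. It was 29.4 in knockout replicate 3 and 45.7 in knockout replicate 4, 41.3 in knockout replicate 5 and 31.3 in knockout replicate 6, and 25.1 in control replicate 4 and 11.4 in control replicate 5. The remaining controls had 35.7 in replicate 1, 17.1 in replicate 2, 18.7 in replicate 3 and 12.2 in replicate 6. Knockout replicates 1, 3 and 6 thus lay within the control range, and knockout replicates 2, 4 and 5 above it. With counts summed over each agreeing pair, edgeR called 0 of the 10 genes and 4 had an unadjusted p under 0.05; over all genes it called 0 of 16393, with 1061 at an unadjusted p under 0.05.

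**Figure D4:**
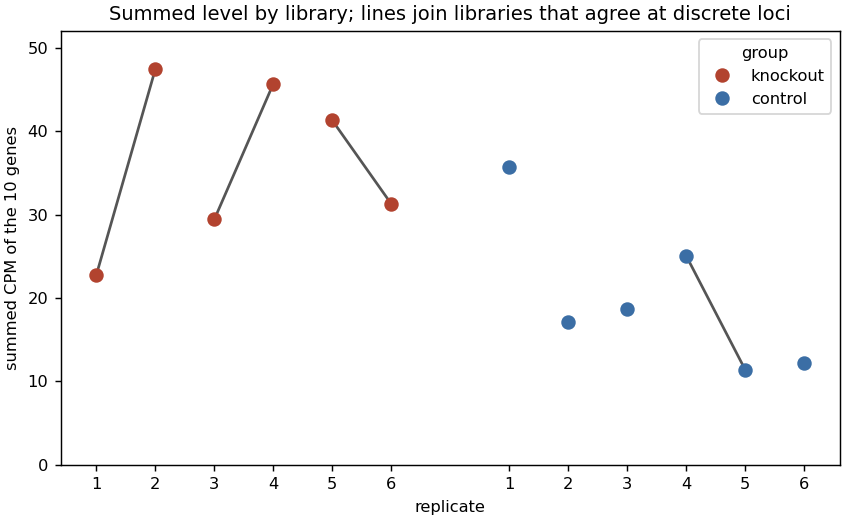
Summed CPM of the 10 genes in each library, knockouts left of controls, with lines joining libraries that agreed at the discrete loci. Joined libraries differ by as much as the whole knockout range, from 22.8 to 47.5 CPM, and control replicate 1, at 35.7 CPM, lies within that range.

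Leaving out control replicate 1 gave the most genes of the 10 at an unadjusted p under 0.05. Without it, 9 of the 10 genes had an unadjusted p under 0.05, all but Gzmb, and 1, Il2rb, had an adjusted p under 0.05 (edgeR quasi-likelihood). In the same fit 1524 of all 16498 tested genes had an unadjusted p under 0.05, and 65 were called, 6 of them higher in knockouts. Control replicate 1 was the highest control for each of these 9 genes, so leaving it out lowered their control means by construction. The summed T cell level of control replicate 1 was also the highest of the controls. Leaving out any other library gave 4 or 5 genes at an unadjusted p under 0.05 and 0 called.

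Among other receptors and adaptors of NK cells, 22 of 31 listed genes were tested, 0 passed in either direction, and the log2 fold change was above 0 for 18, the median being 0.29. At an unadjusted p under 0.05 there were 8, all higher in knockouts. Those with the smallest p were Tigit, an inhibitory receptor (0.711 ± 0.244 CPM in knockouts and 0.331 ± 0.124 CPM in controls), Klrc1, the NKG2A chain that pairs with Klrd1 (0.995 ± 0.291 and 0.439 ± 0.274 CPM), Klre1 (1.36 ± 0.440 and 0.511 ± 0.451 CPM) and Klrb1f (0.850 ± 0.325 and 0.349 ± 0.247 CPM; SD, n = 6 each). Their log2 fold changes were 1.07, 1.18, 1.40 and 1.26, with adjusted p-values from 0.185 to 0.269 (edgeR quasi-likelihood). The 4 tested genes of the list below 0, named after their values were seen, were Itga2 (-0.33), Fcgr3 (-0.14), Klrb1b (-0.11) and Tyrobp (-0.09). Fcgr3 stood at 105 ± 19.9 CPM in knockouts and 116 ± 23.5 CPM in controls, and Tyrobp at 172 ± 31.5 and 183 ± 21.2 CPM. These levels are far above those of the receptors named here, and which cells of the muscle made this RNA was not tested. The Ly49 genes of the list (Klra symbols) are near-identical copies, and reads may have been split between them. Of the 8 genes at an unadjusted p under 0.05, 6 lie on chromosome 6, as does Pparg. They are Klra4, Klra7, Klrb1f, Klrc1, Klre1 and Klri2, so the 8 are not separate loci, and the others were Tigit and Hcst. The part of linkage to Pparg in these values was not tested.

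Of 18 other granule and effector genes, 9 had enough counts to be tested, 0 passed and 6 were positive, with a median log2 fold change of 0.15. Gzmf and Gzmg had 0 counts in every library, and interferon gamma, Ifng, had at most 7. Ctsw, cathepsin W of cytotoxic cells, stood at 3.84 ± 0.800 CPM in knockouts and 2.19 ± 1.13 CPM in controls, with a log2 fold change of 0.81 and an adjusted p of 0.419 (edgeR quasi-likelihood). Cst7, cystatin F, Ccl5, a chemokine that cytotoxic cells secrete, and Tnfsf10, the death ligand TRAIL, had log2 fold changes of 0.53, 0.23 and 0.15 with adjusted p-values of 0.815 or more (edgeR quasi-likelihood).

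Of 16 transcription factors of cytotoxic lymphocytes, 15 were tested and 1 rose, Tcf7, a factor of T cells and of immature NK cells and a target of Wnt signalling in other cells. Tcf7 stood at 10.3 ± 0.810 CPM in knockouts and 6.68 ± 1.44 CPM in controls (SD, n = 6 each), with a log2 fold change of 0.62 and an adjusted p of 0.0457 (edgeR quasi-likelihood). Of the 12 fits that leave out 1 library each, Tcf7 passed in 1, that without control replicate 2, and its adjusted p ranged from 0.0484 to 0.117 (edgeR quasi-likelihood). The list had 11 positive log2 fold changes and a median of 0.14. At an unadjusted p under 0.05 it had 5 genes. Besides Tcf7, these were Runx3, Gata3 and Ikzf3, with log2 fold changes of 0.64, 0.96 and 0.82, and Zeb2, which had -0.26, at adjusted p-values from 0.204 to 0.487 (edgeR quasi-likelihood). Tbx21, also called T-bet and singled out after its values were seen, had 0.94 (SE 0.49).

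Of 22 tested cytokines, chemokines and receptors, 0 passed, 13 were positive and the median log2 fold change was 0.12. Values ranged from -0.65 for the chemokine Cxcl9 to 0.87 for Il18r1. Il15, the ligand read through Il2rb and also picked out after its values were seen, stood at 9.53 ± 1.54 CPM in knockouts and 10.3 ± 1.26 CPM in controls, a log2 fold change of -0.12 (SE 0.12). The smallest p-values were those of Il18r1 and Il18rap, the interleukin 18 receptor chains, with log2 fold changes of 0.87 and 0.48, of Il21r with 0.38 and of the chemokine receptor Cxcr3 with 0.42, at adjusted p-values from 0.523 to 0.621 (edgeR quasi-likelihood). Of 14 tested ligands of NK receptors, 0 passed and 8 were positive, with a median of 0.02. H2-K1, a class I molecule, had a log2 fold change of 0.39, Pvr, a ligand of Tigit, 0.37, Cdh2, N-cadherin, 0.37, and Clec2d, a ligand of a Klrb1 receptor, -0.21, at adjusted p-values from 0.275 to 0.491 (edgeR quasi-likelihood).

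T cell genes mostly had the same sign as the 10 genes, and the part of T cells in their difference was not tested. Of 18 T cell genes, all tested, 0 passed, 16 were positive, the median log2 fold change was 0.47, and 7 had an unadjusted p under 0.05, all higher in knockouts. Their sum ranged from 40.8 to 70.6 CPM in knockouts and from 30.0 to 49.0 CPM in controls, with 3 knockouts above every control, and no gene of the list was at 0 in any library. Trbc1, a T cell receptor constant segment whose transcripts NK cells can also hold, had a log2 fold change of 1.11, the kinase Lck 0.85, and the surface receptor Cd6 0.71, with adjusted p-values from 0.260 to 0.413 (edgeR quasi-likelihood). The genes of the CD3 chains and of the CD4 and CD8 coreceptors were set side by side after their values were seen. Their log2 fold changes were 0.90 for Cd3d, 0.31 for Cd3e, 0.26 for Cd3g, -0.17 for Cd247, 0.47 for Cd4, 0.21 for Cd8a and 0.07 for Cd8b1, and 0 of these 7 passed. The other gene of the list with a value below 0 was Trac, at -0.14. Whether the 10 NK and cytotoxic genes differed more than the T cell genes was not tested.

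Lists of other leukocytes had medians closer to 0. The 10 genes that all leukocytes share, such as Ptprc and Coro1a, summed to 1155 ± 215 CPM in knockouts and 1156 ± 90.6 CPM in controls, with a median log2 fold change of -0.02 and 0 of 10 past the threshold. Macrophage genes summed to between 5462 and 9507 CPM in knockouts and between 7232 and 8744 CPM in controls, with a median of 0.02, and neutrophil genes to between 47.4 and 92.4 CPM in knockouts and between 44.3 and 85.8 CPM in controls, with a median of 0.01; 0 of 10 and 0 of 6 tested genes passed. Gzmb is also made by other blood cells such as mast cells, whose list had 0 of 7 tested genes past the threshold and a median of -0.19. Adipocyte genes were lower, with 10 of 10 log2 fold changes below 0 and a median of -1.69; Fabp4, Adrb3 and Lpl passed, each in 5 to 9 of the 12 fits with 1 library left out. Muscle genes were positive in 10 of 10, their median was 0.17 and 0 passed.

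**Figure D5:**
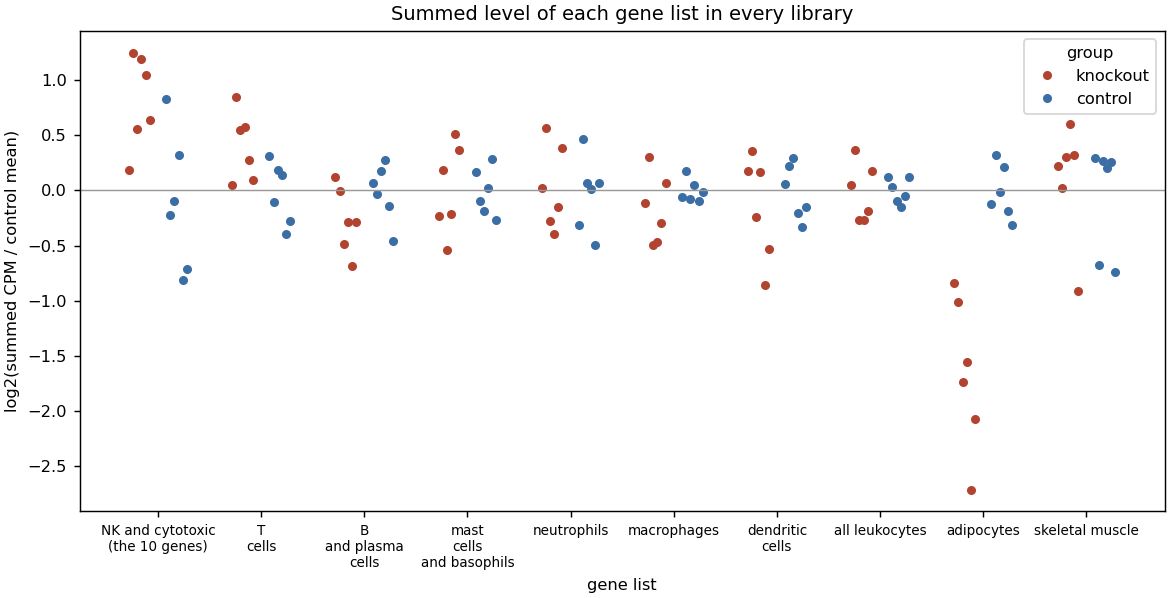
Summed CPM of each gene list in every library, as the log2 ratio to the control mean of that list, knockouts (red) left of controls (blue). The 10 NK and cytotoxic genes had 3 knockouts above every control, the T cell list 3, the skeletal muscle list 3, the lists of mast cells and of all leukocytes 2 each, the macrophage, neutrophil and dendritic lists 1 each and the B and plasma cell list 0, and adipocyte genes lay below every control in all 6 knockouts.

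Klrb1c, Klrd1 and Klrk1 lie on the same chromosome as the deleted gene, 13.3, 14.1 and 14.1 megabases from Pparg. Within 20 megabases of Pparg on either side, 291 genes besides Pparg were tested, with Klrb1c, Klrd1 and Klrk1 among them. Of these 291 genes 1, or 0.344%, passed, against 0.799% of all tested genes. At an unadjusted p under 0.05 the share within this window was 12.7%, against 9.47% of all tested genes, and the median log2 fold change was 0.00033. Klrb1c counts toward this share, so the window is not a background separate from the 10 genes. A further 14 tested genes with Klr symbols lie on chromosome 6, of which 12 had a log2 fold change above 0. Of the 14, 6 had an unadjusted p under 0.05 (edgeR quasi-likelihood). These 6, Klra4, Klre1, Klrb1f, Klri2, Klrc1 and Klra7, were all higher in knockouts. How many of them count toward the share of the window was not examined. The other 7 of the 10 genes, Gzma, Il2rb and Ncr1 among them, lie on other chromosomes. Of the 10 genes, 8 shared 0% of their 50-base words with the transcripts of another gene, Eomes 2.28% with its antisense neighbour Gm33460, and Klrb1c 18.1% with Gm44511, which overlaps it on the same strand. Over the 12 libraries these neighbours had 10 and 4 counts in total.

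By the rule of likeness, the 10 genes outside the list whose deviations from the group mean followed those of the NK genes most closely were Sept1, Usp39, Klre1, Sh2d2a, Tbc1d10c, Ikzf3, Retreg3, Lck, Taf5 and Gpr171. Their Pearson correlations over the 12 libraries lay between 0.84 and 0.90, as the highest of all genes compared, so the values describe a choice. Group differences were not used by this measure. They were largest for Klre1 (log2 fold change 1.40), Sh2d2a, an adaptor of T and NK cells (0.96), Lck (0.85), Ikzf3, a transcription factor of lymphocytes (0.82), and Gpr171 (0.60), and small for Usp39 (0.07), Retreg3 (0.02) and Taf5 (-0.02).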

How the data were processed

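Polyadenylated RNA of whole muscle was captured and sequenced on Illumina machines, per the labels' protocols, which describe a strand-marking and an unmarked version without saying which was used. The submitters' processing notes name fastp, HISAT2 2.0.5, featureCounts and the build GRCm38 (mm10); no source used here states the strand setting. The authors deposited whole-number counts per gene with no normalization, and a table of FPKM values that was used for levels per length and as an alternative.

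Genes were kept by filterByExpr (minimum count 10, minimum total 15), which left 16393, and all 10 genes passed. Libraries were scaled by TMM, and edgeR 4.0.16 in R 4.3.3 compared the groups by its quasi-likelihood test (robust), adjusted over all tested genes at 0.05. Standard errors and 95% intervals were derived from the F statistics. Log2 CPM for likeness had a prior count of 2. CPM values use the TMM-scaled library totals. The fit was first tested on simulated data. No library was treated as a duplicate: over the 30 pairs within groups, chi-square per degree of freedom was 12.9 to 159. The counting coefficients of variation cover counting error only.

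The genes and the 14 other lists were chosen with earlier results of these data known. Genes named from a list are those past the threshold or, where there was none, up to 4 with the smallest p; others are marked as chosen later. A gene that this rule names among the T cell genes is not reported here. Likeness was computed over protein-coding genes whose mean log2 CPM was 0 or more. Alternatives covered scaling, DESeq2 1.42.0, limma 3.58.1, filters, the replicate number, FPKM with pseudocounts of 1 and 0.1, the mitochondrial share of counts, summed pairs and each library left out. Discrete loci had a gap over 3 log2 units, and libraries were paired at an agreement of at least 80%.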

Additional observations from a re-analysis of the deposited data

Results flagged for a closer look

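A library stood apart from the other 5 of its group in 15 of 144 groups of values, those of the 10 genes, their sum and the other named genes. The critical value used flags about 1 in 20 by chance, for separate groups of normally distributed values. Many of these genes have low counts and some vary together, so that share is not a strict yardstick for the 15. In 9 of the 15 the library was control replicate 1, as the highest control. Among the 10 genes these were Klrd1, at 5.32 CPM with the next control at 3.41 (the gap took 0.6744 of the group's range), and Nkg7, at 3.71 CPM with the next control at 1.45 (0.6734). The other named genes in which control replicate 1 stood apart were Ccr7 (0.6674), Gpr171 (0.7054), Ikzf3 (0.6923), Il18r1 (0.6926), Klre1 (0.6314), Tbc1d10c (0.6502) and Trbc1 (0.6885), in that gap's share of the range. Gpr171, Ikzf3, Klre1 and Tbc1d10c had been named for their likeness to the 10 genes, so they are not separate from them.

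Among neutrophil genes, control replicate 2 was highest for Cxcr2, at 2.03 CPM with the next control at 0.457 (0.7966), and for S100a8, at 6.17 CPM with the next at 1.88 (0.8505). Control replicate 5 was lowest for Cst7 (0.6801). Knockout replicate 2 was the highest knockout for Cxcr3 (0.6324) and for Retreg3 (0.8749), and knockout replicate 4 for Cd6 (0.6728).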

How the results depend on the processing

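All 228 fold changes of the 10 genes under the alternatives were positive, and 225 of them stayed on the same side of the threshold; the other 3 are those of Gzma and Il2rb with DESeq2 (adjusted p = 0.0128 and 0.00579) and of Il2rb without control replicate 1. DESeq2 thus called 2 of the 10 genes, and between 0 and 1 were called with 1 library left out. The filter of 1 CPM in 6 libraries left 8 of the 10 genes, without Prf1 and Eomes. Adjusted p-values over the alternatives ranged from 0.00579 to 0.331 for Il2rb, from 0.0128 to 0.340 for Gzma, from 0.0896 to 0.530 for Ncr1 and from 0.115 to 0.658 for Klrb1c. Over all tested genes the 131 calls became 399 with DESeq2, of which 67 were higher, 389 with limma-voom, of which 64 were higher, 0 with counts summed over pairs, and between 6 and 214 with 1 library left out; the cause was not tested. Same-numbered libraries of the groups had deviations that correlated at -0.13 to 0.46, over 0.1 in 2 of 6, so the numbers were not taken as pairs; of 6 knockouts 1, and of 6 controls 2, correlated best with the library of their own number. The fit with the replicate block called 236 genes and 0 of the 10. Tcf7 passed in 9 of its 23 alternatives, with adjusted p-values from 0.00053 to 0.391. Low counts limit the precision: the lowest library had 1 count for Eomes, 7 for Gzmb and 8 for Klrb1c and for Nkg7.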

Other observations

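As lists, dendritic cell genes and B and plasma cell genes appeared above only in the figure of summed gene lists. Of 10 dendritic cell genes, all tested, 9 had a log2 fold change below 0; the median was -0.07, and 0 passed. Siglech, a marker of plasmacytoid dendritic cells, stood at 4.16 ± 0.914 CPM in knockouts and 6.21 ± 2.05 CPM in controls, and Cd209a, a lectin of monocyte-derived dendritic cells, at 5.08 ± 2.71 CPM in knockouts and 8.79 ± 2.37 CPM in controls (SD, n = 6 each), with adjusted p-values of 0.364 and 0.526 (edgeR quasi-likelihood). Batf3 and Ccr7 had log2 fold changes of -0.34 and 0.22. Of 7 tested B and plasma cell genes 0 passed, 5 had a log2 fold change above 0 and the median was 0.09. Jchain, Cd79a and Mzb1 had log2 fold changes of 0.52, 0.21 and 0.16. Ighm, the immunoglobulin mu chain, stood at 30.0 ± 9.28 CPM in knockouts and 42.0 ± 6.16 CPM in controls (adjusted p = 0.333, edgeR quasi-likelihood).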
